A study of Mus musculus with 8 samples.

Results

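Follicular regulatory T cell genes are here genes of the programme of Treg of the B cell follicle and of follicular helper T cells. The 10 genes described here are the chemokine receptor gene Cxcr5, the transcription factor genes Bcl6, Tox, Tox2 and Ascl2, the surface receptor and ligand genes Pdcd1 and Cd200, the adaptor gene Sh2d1a and the genes of the secreted proteins SOSTDC1 and IL-21. They were found by symbol among the 38215 genes of the deposited tables, and all 10 are listed. The list was drawn up with the difference between the tissues in these same libraries already known, and Sostdc1 in particular was chosen for being high in the spleen. The levels of these genes in the tissues are therefore given as a description, with fold changes and standard errors but with no p-value.

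RNA was sequenced from FoxP3+ cells of the bone marrow (BM-Treg, 4 libraries) and of the spleen (SP-Treg, 4 libraries). The mice were untreated B6.FoxP3-GFP animals aged 12 weeks on the C57Bl/6 background, in which cells that express FoxP3 also make a green fluorescent protein and can be sorted by it. According to the labels, BM-Treg replicates 1 to 3 were female and in batch 1. All SP-Treg libraries, like BM-Treg replicate 4, were male and in batch 3. Batch and sex therefore cannot be told apart in any library. Tissue can be told apart from them only through BM-Treg replicate 4. The methods give 4 biological replicates per tissue and do not say whether animals were pooled. The sort took Treg as a whole and not follicular Treg, so that in these bulk libraries fewer follicular cells and less RNA per cell cannot be told apart.

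Follicular regulatory T cells are Treg that have entered the B cell follicle, where they restrain the germinal centre reaction. BCL6, a transcriptional repressor, is needed for this state, and CXCR5 guides the cells toward CXCL13, which is made by follicular stroma. Much of the programme is shared with follicular helper T cells, which, unlike Treg, make IL-21 for B cells. BLIMP-1, encoded by Prdm1, and BCL6 repress each other, and the bone marrow holds no B cell follicles of the kind found in the spleen.

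In BM-Treg, Cxcr5, Bcl6, Sostdc1, Cd200 and Sh2d1a were lower than in SP-Treg in every library, by 27.98-fold for Sostdc1 and by between 1.62-fold and 2.91-fold for the other 4. Pdcd1, Tox and Tox2 overlapped between the tissues. Ascl2 and Il21 were at a few counts per library and did not pass the expression filter. The threshold for calling a gene was an adjusted p under 0.05 in the quasi-likelihood test of edgeR. The Benjamini-Hochberg (BH) procedure was applied over all genes. Of all 13397 genes tested, 5.02% were called lower in BM-Treg, 3.72% were called higher, and in 8.56% every BM-Treg library lay below every SP-Treg library. Since the follicular genes were chosen on this contrast, no calls are given for them. Nothing is read from the number of them without overlap against these shares. The median log2 fold change of the 8 genes that passed the filter was -0.79, against -0.01 over all genes tested. Their choice on this contrast shaped this median, and nothing is read from it.

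**Figure D1:**
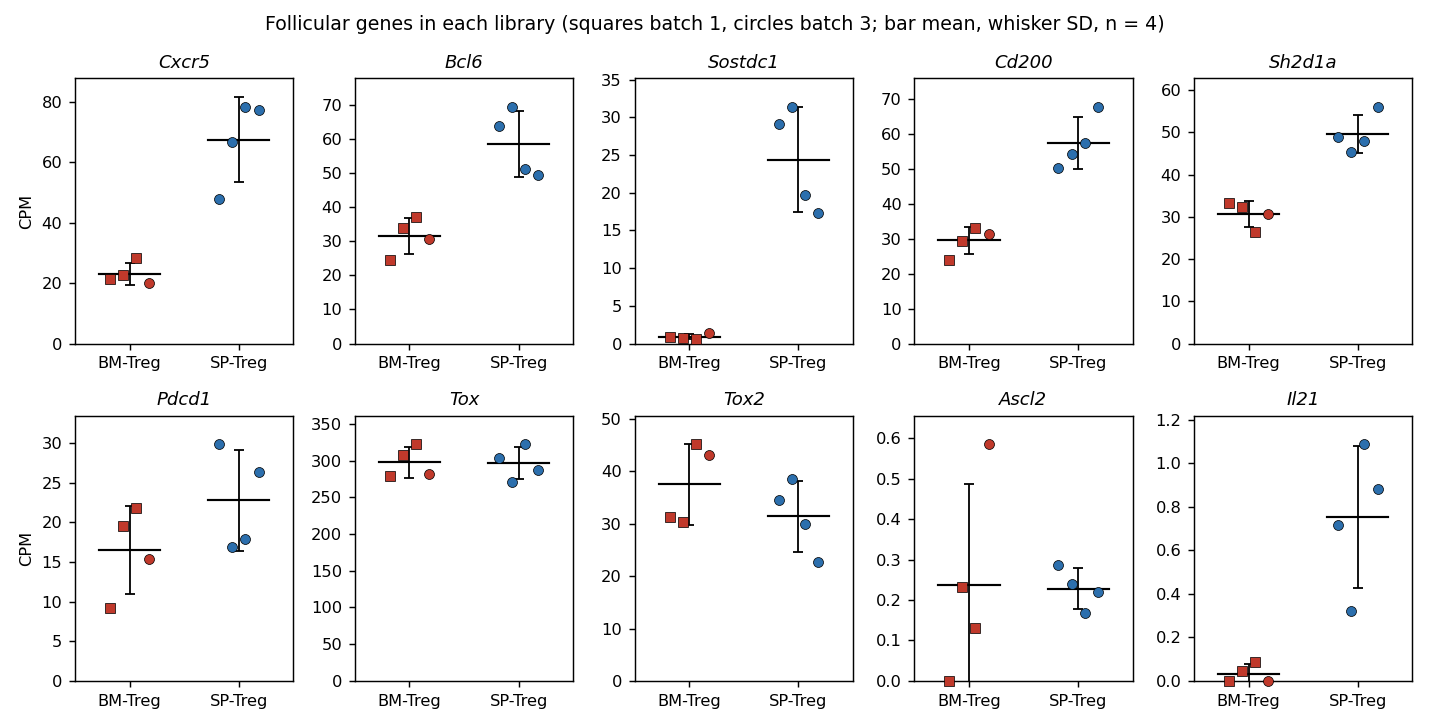
CPM (expected counts relative to library size, y axis, from 0) of the 10 follicular genes in the 4 BM-Treg (red) and 4 SP-Treg (blue) libraries. Squares are libraries of batch 1 and circles are libraries of batch 3, and the bar and whisker are the mean and SD, cut off at 0. In Sostdc1 the BM-Treg libraries lie between 0.657 and 1.34 CPM and the SP-Treg libraries between 17.2 and 31.4 CPM, whereas in Tox both tissues lie between 271 and 322 CPM.

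Cxcr5 lies on chromosome 9, from 44511788 to 44556391 (GRCm38). It was at 21.4, 22.6, 28.3 and 20.1 CPM in BM-Treg replicates 1 to 4 and at 47.8, 66.7, 78.3 and 77.1 CPM in SP-Treg replicates 1 to 4. CPM values are expected counts brought to the same library size after normalization, which can be compared between libraries but not between genes. The lowest SP-Treg library, replicate 1, was still well above the highest BM-Treg library. The log2 fold change, BM-Treg over SP-Treg, was -1.54 (standard error (SE) 0.16, n = 4 in each tissue). Reads of Cxcr5 were assigned to a pair of protein-coding transcripts, and Cxcr5-201 took most of the estimated FPKM in both tissues, 87.7% ± 4.61 in BM-Treg and 92.1% ± 3.23 in SP-Treg (SD, n = 4). FPKM values are expected counts divided by transcript length and library depth, so that they can be compared between genes.

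Bcl6 lies on the minus strand of chromosome 16, from 23965052 to 23988852 (GRCm38). Its transcript was at 24.6, 33.8, 37.1 and 30.7 CPM in BM-Treg replicates 1 to 4 and at 63.7, 69.4, 51.1 and 49.5 CPM in SP-Treg replicates 1 to 4. All BM-Treg libraries lay below all SP-Treg libraries, and within the spleen replicates 1 and 2 were above replicates 3 and 4, the reverse of Cxcr5, where replicates 3 and 4 were the highest. The log2 fold change was -0.89 (SE 0.15). Nearly all of the FPKM of Bcl6 belonged to the coding transcript Bcl6-201, with 94.9% ± 2.10 in BM-Treg and 96.0% ± 0.55 in SP-Treg (SD, n = 4), and the remainder to a transcript with a retained intron.

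The sequences before the annotated starts of Bcl6 are shown because the factors that act on this gene are the subject of the comparisons of pathway genes that follow. RefSeq (GRCm38.p6) gives Bcl6 more than 1 start, and the 250 bases before the start at the 5′ end of the gene and before a start within intron 1 of Bcl6-201 are printed 5′ to 3′ on the minus strand. The first window is chr16:23988853-23989102 and the second is chr16:23981284-23981533. Capitals mark TTCNNNGAA, the core of sites bound by STAT factors, CTTTGA, the core of sites bound by TCF-1 and LEF-1, and CANNTG, the E-box of basic helix-loop-helix factors, each searched on both strands.
Bcl6, 5′ start: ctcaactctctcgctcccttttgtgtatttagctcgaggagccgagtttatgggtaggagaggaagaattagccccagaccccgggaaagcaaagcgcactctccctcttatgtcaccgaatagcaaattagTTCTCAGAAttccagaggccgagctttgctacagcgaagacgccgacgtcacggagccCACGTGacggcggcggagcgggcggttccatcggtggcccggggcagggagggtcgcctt
Bcl6, intron 1 start: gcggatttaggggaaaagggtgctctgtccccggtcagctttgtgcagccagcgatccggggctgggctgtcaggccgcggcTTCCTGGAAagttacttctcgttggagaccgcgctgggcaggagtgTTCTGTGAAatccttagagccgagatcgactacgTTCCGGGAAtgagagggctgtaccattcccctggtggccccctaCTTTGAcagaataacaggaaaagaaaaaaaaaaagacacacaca
The window at the intron 1 start held 3 matches to TTCNNNGAA, a number reached in 9 of the 32851 promoter windows of the same length, or 0.0274%. At least 1 match was in 7.02% of all windows, CTTTGA was in 13.8% and CANNTG in 66.2%. These are matches of letters, chosen for display after the windows had been searched, and no binding was measured. Pdcd1, Cd200, Tox2, Il21 and Ascl2 also had windows in the promoter set used, whereas Cxcr5, Sostdc1, Tox and Sh2d1a had none there.

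Sostdc1, on chromosome 12 from 36314169 to 36318452, encodes a secreted antagonist of WNT and BMP signals and has a single transcript in the tables. It was at 0.876, 0.741, 0.657 and 1.34 CPM in BM-Treg replicates 1 to 4 and at 29.2, 31.4, 19.7 and 17.2 CPM in SP-Treg replicates 1 to 4. Each BM-Treg library held 15 or 16 counts of it, whereas the SP-Treg libraries held between 235 and 406. The log2 fold change of -4.81 (SE 0.28) was the 8th lowest among the 13397 genes tested. Like Bcl6, Sostdc1 was highest in SP-Treg replicates 1 and 2, by CPM, and lower in replicates 3 and 4. Within the batch that holds both tissues, BM-Treg replicate 4 had the most Sostdc1 of the BM-Treg libraries, and the log2 fold change there was -4.16.

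Cd200 encodes a membrane glycoprotein that restrains myeloid cells through its receptor, and lies on the minus strand of chromosome 16 from 45382135 to 45409053. It was at 24.0, 29.4, 33.1 and 31.5 CPM in BM-Treg replicates 1 to 4 and at 50.4, 54.2, 57.3 and 67.7 CPM in SP-Treg replicates 1 to 4. The tissues did not overlap on this scale, and the log2 fold change was -0.96 (SE 0.13). On the scale of log2(FPKM + 1), in which the length of the transcripts enters, the log2 fold change was smaller, at -0.53. Here BM-Treg replicate 3, at 33.9 FPKM, reached the lower SP-Treg libraries.

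The estimated makeup of the Cd200 transcripts differed between the tissues. Protein-coding transcripts took 45.5% ± 9.36 of the FPKM of Cd200 in BM-Treg and 65.3% ± 4.68 in SP-Treg (SD, n = 4), with at most 57.1% in a BM-Treg library and at least 58.5% in an SP-Treg library. In FPKM, the coding transcripts were at 11.2 ± 1.86 in BM-Treg and 23.6 ± 3.38 in SP-Treg, with no overlap. The most abundant of the non-coding transcripts took 34.0% ± 10.1 of the FPKM in BM-Treg and 21.2% ± 7.19 in SP-Treg, from 290 and 185 expected counts over the 4 libraries of each tissue. These shares come from splitting reads among overlapping transcripts and are less certain than the gene's total. For Sh2d1a and Tox the coding shares overlapped between the tissues, with means of 75.1% and 78.1% for Sh2d1a and 76.3% and 71.2% for Tox in BM-Treg and SP-Treg.

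**Figure D2:**
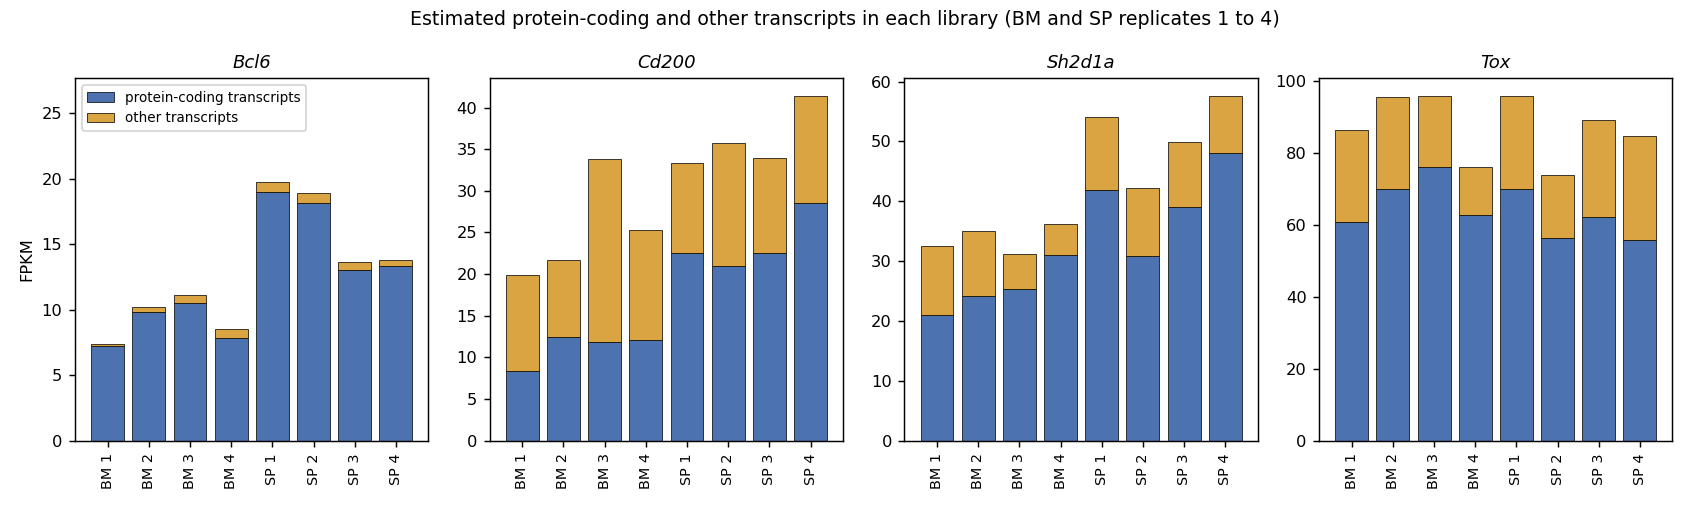
FPKM (y axis, from 0) of protein-coding transcripts (blue) and of all other transcripts (yellow) of Bcl6, Cd200, Sh2d1a and Tox, stacked for each BM-Treg (BM) and SP-Treg (SP) library. In Cd200 the coding part is between 8.40 and 12.4 FPKM in BM-Treg and between 20.9 and 28.6 FPKM in SP-Treg, while the other transcripts reach their highest level in BM-Treg replicate 3.

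Sh2d1a encodes SAP, the adaptor that couples receptors of the SLAM family to the kinase FYN and that T cells need for lasting contact with B cells. It lies on the X chromosome from 42502453 to 42523697. It was at 33.2, 32.4, 26.4 and 30.7 CPM in BM-Treg replicates 1 to 4 and at 48.9, 45.4, 48.1 and 56.1 CPM in SP-Treg replicates 1 to 4. The spread within each tissue was small, the tissues did not overlap, and the log2 fold change was -0.69 (SE 0.12). Among the male libraries of batch 3 it was -0.67.

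Pdcd1, the gene of the inhibitory receptor PD-1, lies on chromosome 1 from 94038307 to 94052553. It was at 9.25, 19.5, 21.8 and 15.5 CPM in BM-Treg replicates 1 to 4 and at 29.9, 16.9, 18.0 and 26.4 CPM in SP-Treg replicates 1 to 4. BM-Treg replicates 2 and 3 lay above SP-Treg replicates 2 and 3, and the log2 fold change of -0.46 (SE 0.26) was within what the libraries of each tissue spanned. BM-Treg replicate 1 was the lowest library and SP-Treg replicates 1 and 4 were the highest.

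Tox and Tox2 encode HMG-box factors of T cells that are stimulated repeatedly, and Tox2 is also known to open chromatin at follicular genes. Tox, on chromosome 4 from 6686353 to 6991557, was at 279, 308, 322 and 282 CPM in BM-Treg replicates 1 to 4 and at 304, 271, 322 and 288 CPM in SP-Treg replicates 1 to 4. Its log2 fold change was 0.01 (SE 0.10), the smallest of the 8 genes in size. An annotated antisense gene, Gm11802, overlaps Tox, and the strand setting of the library is not given in the sources used here, so that reads of both genes cannot be told apart, although only 37.9 counts per library were assigned to Gm11802 on average. Tox2, on chromosome 2 from 163203125 to 163324170, was at 31.4, 30.4, 45.2 and 43.0 CPM in BM-Treg replicates 1 to 4 and at 34.5, 38.6, 30.01 and 22.7 CPM in SP-Treg replicates 1 to 4. Its libraries overlapped, with BM-Treg replicates 3 and 4 highest and SP-Treg replicate 4 lowest, and the log2 fold change was 0.25 (SE 0.18). Neither gene was lower in BM-Treg over all libraries, and Tox, near 0, changed sign among the alternatives tried.

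Ascl2 encodes a basic helix-loop-helix factor that can induce Cxcr5, and Il21 the cytokine of follicular helper T cells. Ascl2 (chromosome 7, 142966822 to 142969264) had 0, 5, 3 and 7 counts in BM-Treg replicates 1 to 4 and 4, 3, 2 and 3 counts in SP-Treg replicates 1 to 4. No difference was detectable at this depth, since the pooled ratio of SP-Treg to BM-Treg was 1.09 (95% interval 0.465 to 2.49). Il21 (chromosome 3, 37222759 to 37232618) had 0, 1, 2 and 0 counts in BM-Treg replicates 1 to 4 and 10, 4, 13 and 12 counts in SP-Treg replicates 1 to 4. Every SP-Treg library thus held more Il21 than any BM-Treg library, and the pooled ratio of 39 to 3 counts, corrected for depth, was 17.7 (95% interval 5.62 to 89.4). Both intervals are exact conditional binomial intervals and cover counting error only. A count of 0 allows up to 0.171 CPM in BM-Treg replicate 1 and 0.241 CPM in BM-Treg replicate 4. The antisense gene Gm12534, which overlaps Il21, had 0 counts in all libraries.

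On the FPKM scale the order of the levels was led by Tox in both tissues, at 88.6 ± 9.33 FPKM in BM-Treg and 86.0 ± 9.25 FPKM in SP-Treg (SD, n = 4, here and for the following levels). In SP-Treg, Sh2d1a (51.0 ± 6.61), Cd200 (36.1 ± 3.68) and Cxcr5 (25.6 ± 4.05) followed, and the FPKM of no SP-Treg library overlapped between neighbours in this order. Next came Bcl6 (16.5 ± 3.27), Sostdc1 (14.3 ± 4.55), Tox2 (12.6 ± 4.56) and Pdcd1 (12.2 ± 4.17), which overlapped one another. In BM-Treg the FPKM of Sh2d1a (33.7 ± 2.25) and Cd200 (25.2 ± 6.19) overlapped, and Tox2 (16.4 ± 2.91) came next, its highest library within the range of Cd200. Bcl6 (9.33 ± 1.68), Cxcr5 (9.26 ± 1.64) and Pdcd1 (9.16 ± 3.19) followed at like levels, whereas Sostdc1 was at 0.548 ± 0.158 FPKM. Il21 and Ascl2 were below 1 FPKM in every library. In mean FPKM, Cxcr5 was thus above Bcl6 in SP-Treg and at the level of Bcl6 in BM-Treg. In SP-Treg replicate 1, however, Cxcr5 and Bcl6 were also at like levels, 20.2 and 19.8 FPKM.

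The expression of Foxp3, the gene by which the cells were sorted, was between 1497 and 2081 CPM in BM-Treg and between 1272 and 1721 CPM in SP-Treg (log2 fold change 0.26, SE 0.13, adjusted p = 0.241 by edgeR). The summed CPM of Foxp3, Ikzf2, Cd4, Cd3d, Cd3e and Cd3g, markers of Treg and T cells, was between 5743 and 6859 in BM-Treg and between 5628 and 6519 in SP-Treg. Against this background, the log2 ratio of Cxcr5 to Foxp3 in a library, in CPM, was -6.24 ± 0.32 in BM-Treg and -4.45 ± 0.33 in SP-Treg, with no overlap (SD, n = 4). Prdm1 averaged 343 ± 63.6 CPM in the BM-Treg and 342 ± 63.3 CPM in the SP-Treg libraries (log2 fold change 0.0041, SE 0.15, adjusted p = 0.991 by edgeR). The log2 ratio of Bcl6 to Prdm1 was -3.55, -3.48, -3.49 and -3.24 in BM-Treg replicates 1 to 4 and -2.76, -2.31, -2.59 and -2.54 in SP-Treg replicates 1 to 4. This ratio was lower in every BM-Treg library than in any SP-Treg library, and since Bcl6 is one of the genes chosen on this contrast it carries no test.

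Total expected counts on genes were between 12427136 and 21921252 in BM-Treg and between 12924964 and 14121975 in SP-Treg. Cxcr5, Bcl6 and Cd200 are also transcribed in B cells, and the SP-Treg libraries differed in the RNA of other cells they held. The summed CPM of 9 B cell markers was between 14.4 and 18.2 in BM-Treg and was 11.6, 127, 29.5 and 23.5 in SP-Treg replicates 1 to 4. Pax5, which encodes a factor that defines B cells, was at 0 in SP-Treg replicate 1 and at 6.85 CPM in replicate 2. Of 6 erythroid markers, the sum was between 12.6 and 32.5 CPM in BM-Treg and was 1.80, 187, 453 and 290 CPM in SP-Treg replicates 1 to 4. Hence SP-Treg replicate 1 held the least of both kinds of RNA among all 8 libraries, and replicate 2 the most B cell RNA. By exact two-sided permutation tests on the log2 summed CPM, none of 8 marker lists passed after BH adjustment over the lists. With 4 libraries against 4, at least 5 of the 8 lists would have to be at the smallest possible p for any to pass, so this does not show that the lists were alike. In this exact permutation test the plasmacytoid dendritic cell list alone reached the smallest p that 4 libraries against 4 allow (unadjusted p = 0.0286, adjusted p = 0.229). Its sum was 25.0 to 35.7 CPM in BM-Treg and 36.5 to 47.5 CPM in SP-Treg, most of it Pacsin1. Siglech went the other way, at 0.167 to 0.821 CPM in BM-Treg and 0 to 0.334 CPM in SP-Treg. Each single marker of this list (Pacsin1, Bst2, Siglech, Ly6d and Klk1) overlapped between the tissues. The exact unadjusted p was 0.314 for the erythroid list, 0.229 for the B cell list and between 0.0857 and 1.0 for the other 5 lists. By the mean log2(CPM + 1) of a list, the plasma cell list and the list of CD8 T and NK cells were at that smallest p instead (exact permutation test, unadjusted p = 0.0286, adjusted p = 0.114 each).

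**Figure D3:**
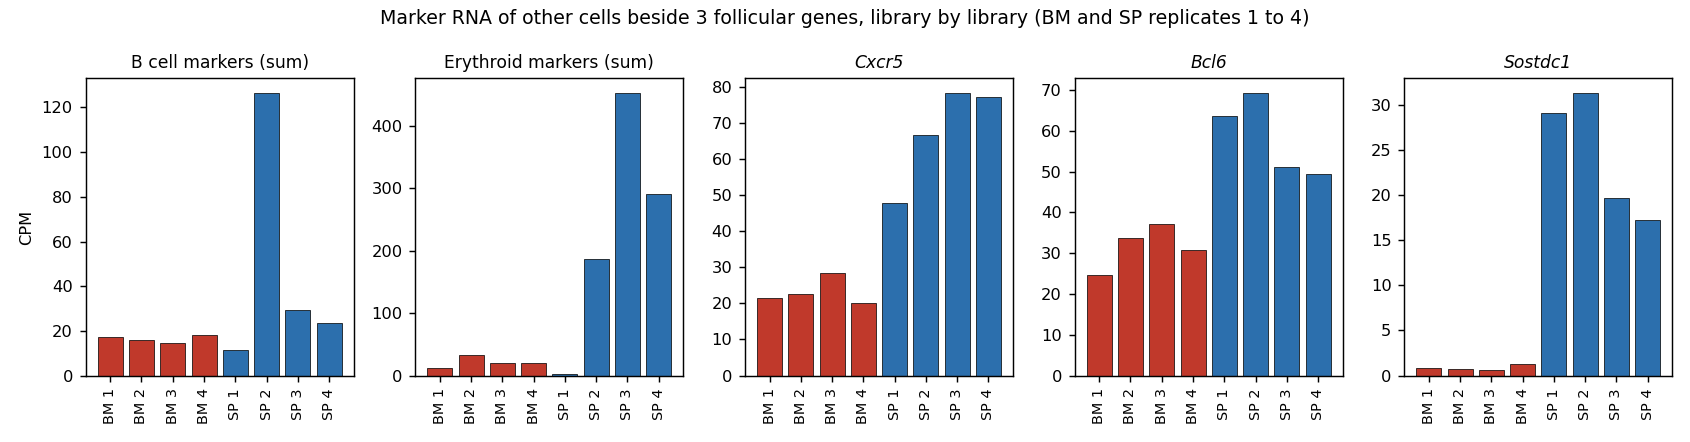
Summed CPM of B cell markers and of erythroid markers, and CPM of Cxcr5, Bcl6 and Sostdc1, in each BM-Treg (red) and SP-Treg (blue) library, with all y axes from 0. SP-Treg replicate 2 has the highest B cell bar, at 127 CPM, and SP-Treg replicate 1 the lowest, at 11.6 CPM, while Sostdc1 is at 31.4 and 29.2 CPM in these libraries.

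SP-Treg replicate 1, with less B cell marker RNA than any BM-Treg library, held 47.8 CPM of Cxcr5, 63.7 CPM of Bcl6, 29.2 CPM of Sostdc1, 50.4 CPM of Cd200 and 48.9 CPM of Sh2d1a, each above all BM-Treg libraries. When it alone was compared with the 4 BM-Treg libraries, the log2 fold changes were -1.04 for Cxcr5, -1.01 for Bcl6, -5.05 for Sostdc1, -0.77 for Cd200 and -0.67 for Sh2d1a. Cxcr5 was thus closer to BM-Treg in this library than in the other SP-Treg libraries. For Bcl6 and Sostdc1 the difference was larger than with all SP-Treg libraries. SP-Treg replicate 2 held still more of both, at 69.4 and 31.4 CPM. Whether RNA of B cells or erythroid cells had a part in the higher Cxcr5 of SP-Treg replicates 2 to 4 was not tested. In batch 3 alone, where BM-Treg replicate 4 is the only BM-Treg library and male like the others, the log2 fold changes were -1.73 for Cxcr5, -0.91 for Bcl6, -4.16 for Sostdc1, -0.85 for Cd200 and -0.67 for Sh2d1a. All of these kept the direction found with all libraries, and they carry no replicate on the bone marrow side. For the genes that overlapped, batch 3 alone gave -0.55 for Pdcd1, 0.47 for Tox2 and -0.05 for Tox.

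**Figure D4:**
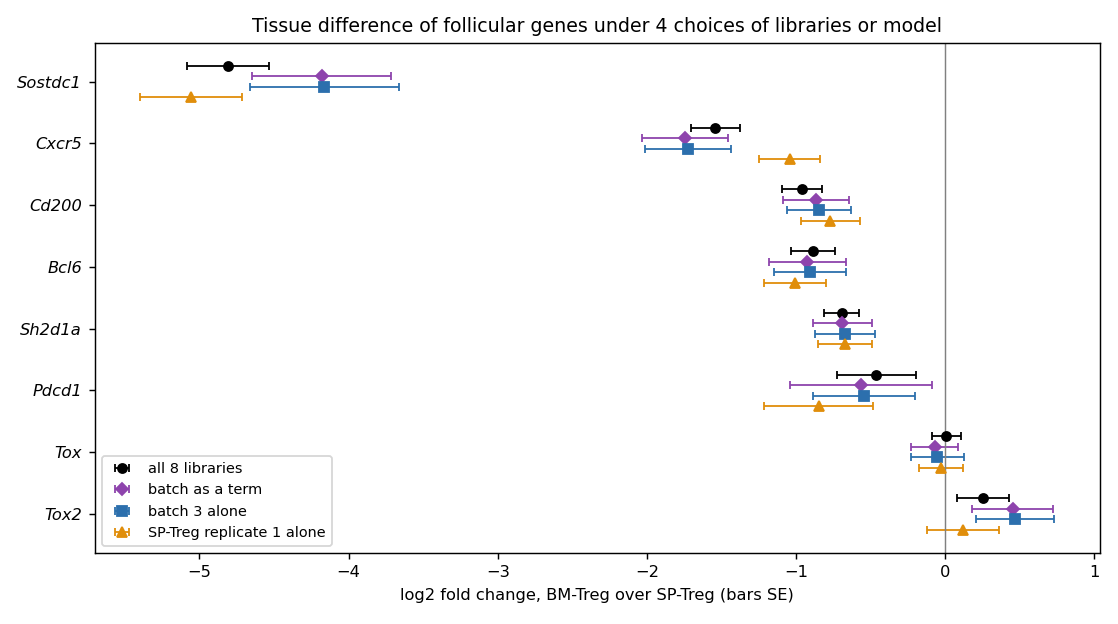
Log2 fold change, BM-Treg over SP-Treg (x axis), with its standard error (bars), of the 8 follicular genes that passed the expression filter, from all 8 libraries (black), with batch as a term (purple), in batch 3 alone (blue) and against SP-Treg replicate 1 alone (orange). Sostdc1 lies between -5.05 and -4.16, Cxcr5 between -1.74 and -1.04, and Tox within 0.072 of 0 under all of these choices.

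Apart from the 10 genes, 75 genes known to act in the follicular pathway were taken in 9 lists, of which 66 passed the expression filter. Of these, 18 passed the threshold, 14 lower and 4 higher in BM-Treg, which is 27.3% of those tested against 8.75% over the whole table (edgeR, BH over all genes). The lists were written with earlier results of these data known, and so the share is not independent evidence of a direction. All 18 genes kept their direction with batch as a term, in batch 3 alone and against SP-Treg replicate 1 alone. However, 5 of them passed the threshold with batch as a term (Tcf7, Irf4, Btla, Il1rn and Il6st), and 9 of the 18 passed in all 8 leave-one-out fits, in which a single library is dropped. Of the 18, Batf, Slamf1, Slamf6, Icos, Cd28, Tigit and Il6st no longer passed on either FPKM scale. Batf, Fyn, Slamf1, Slamf6, Icos, Cd28, Il6ra and Il6st no longer passed when libraries were scaled to T cell genes, and Batf, Ccr7, Gpr183, Id2, Il1r2, Slamf1, Slamf6 and Tigit no longer passed against SP-Treg replicate 1 alone. Of the 48 tested genes that were not called, 8 passed under at least 1 of the 20 alternatives (Selplg, Axin2, Il2ra, Rc3h1, Bmpr2, Ctnnb1, Il1r1 and Pou2af1).

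Factors that promote the follicular programme were represented by 11 genes, of which 3 were lower in BM-Treg and none higher. Called genes were 27.3% of the list, against 8.75% over all genes. Tcf7, which encodes TCF-1, an activator of Bcl6, fell by 1.40 on the log2 scale, and Irf4, needed for the follicular fate, fell by 1.14 (SE 0.17 and 0.14, adjusted p = 0.0009 and 0.000392 by edgeR). Batf, the AP-1 partner of IRF4, averaged 122 ± 27.8 CPM in the BM-Treg and 180 ± 25.9 CPM in the SP-Treg libraries (SD, n = 4), a log2 fold change of -0.56 (SE 0.16, adjusted p = 0.0483 by edgeR). The call of Batf was lost when any library other than BM-Treg replicate 3 or SP-Treg replicate 3 was left out, with log2 fold changes between -0.69 and -0.40 over these fits. Pou2af1, a coactivator of B cells that T cells of the follicle also express, had the largest log2 fold change of the list, -2.01 (SE 0.69, adjusted p = 0.141 by edgeR). It was at 9.34, 73.3, 22.1 and 19.96 CPM in SP-Treg replicates 1 to 4 and between 4.42 and 11.7 CPM in BM-Treg, in the order of the B cell markers within the spleen, and against SP-Treg replicate 1 alone its log2 fold change was -0.27. The part of B cell RNA in this difference was not tested.

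Of 11 factors that restrain the programme, 1 was higher in BM-Treg, or 9.09%. This is near the 8.75% called over all genes, and nothing is read from it. Id2, which holds E proteins back from the Cxcr5 gene, was at 22.9, 31.1, 38.8 and 41.5 CPM in BM-Treg replicates 1 to 4 and between 19.6 and 24.1 CPM in SP-Treg. It rose by a log2 fold change of 0.66 (SE 0.17, adjusted p = 0.0246 by edgeR), although BM-Treg replicate 1 lay among the SP-Treg libraries. Leaving out BM-Treg replicate 3 or 4 or SP-Treg replicate 1, 2 or 3 removed the call, with log2 fold changes between 0.55 and 0.83 over the 8 fits. None of 5 genes of BCL6 corepressors passed the threshold. Ncor1, the most highly expressed of them, averaged 668 ± 52.1 CPM in the BM-Treg and 672 ± 81.7 CPM in the SP-Treg libraries (SD, n = 4, adjusted p = 0.975 by edgeR).

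Among the SLAM family receptors and the partners of SAP, 6 of 8 genes were tested, 2 were lower and 1 was higher. Calls were thus made for 3 of the 6 genes tested, against 8.75% over all genes. Fyn, the kinase that SAP recruits, averaged 166 ± 20.3 CPM in the BM-Treg and 241 ± 14.6 CPM in the SP-Treg libraries (SD, n = 4), a log2 fold change of -0.53 (SE 0.10, adjusted p = 0.00607 by edgeR). The receptor gene Slamf6 had a log2 difference of -0.59 (SE 0.14, adjusted p = 0.0183 by edgeR), and lay between 51.1 and 79.5 CPM in BM-Treg and between 86.6 and 110.8 CPM in SP-Treg. Leaving out BM-Treg replicate 2 or 3 removed the call of Slamf6, and its log2 fold change stayed between -0.66 and -0.48 over the 8 fits. Slamf1 went the other way, with a log2 fold change of 0.34 (SE 0.10, adjusted p = 0.0437 by edgeR), and kept its call only without SP-Treg replicate 3, while its log2 fold change was between 0.31 and 0.41 over the 8 fits. In Sh2d1a, Fyn and Slamf6 every BM-Treg library lay below every SP-Treg library, and in Slamf1 every BM-Treg library lay above. Of all genes tested, 8.56% had every BM-Treg library below every SP-Treg library, and Sh2d1a was chosen on this contrast. The receptor genes Slamf7, Cd84 and Ly9 were not called, with log2 fold changes of -0.13, 0.0004 and 0.03.

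Of the 10 costimulatory and coinhibitory receptors and ligands, 4 were lower and 1 was higher in BM-Treg. Thus 5 of the 10 genes tested were called, against 8.75% over all genes. Btla, an inhibitory receptor of follicular cells, was at 93.4, 99.2, 78.5 and 82.9 CPM in BM-Treg replicates 1 to 4 and at 144, 148, 165 and 159 CPM in SP-Treg replicates 1 to 4. It fell by 0.80 on the log2 scale (SE 0.10, adjusted p = 0.00059 by edgeR), with the tissues far apart and little spread within either. Tigit, another inhibitory receptor gene, fell by 0.68 (SE 0.15, adjusted p = 0.0121 by edgeR). By flow cytometry, a measure of protein and not of RNA, the paper reports a larger share of TIGIT-positive cells among BM-Treg than among splenic Treg. Icos and Cd28 were lower by a log2 fold change of -0.49 and -0.39 (adjusted p = 0.0439 and 0.0355 by edgeR), and each was no longer called in 6 of the 8 leave-one-out fits. Cd200r1, the receptor of CD200, was higher in BM-Treg by a log2 difference of 0.64 (SE 0.14, adjusted p = 0.0119 by edgeR), averaging 45.5 ± 0.857 CPM there against 29.3 ± 6.53 CPM in the spleen. The ligand Cd200 and its receptor gene thus lay in opposite order in the tissues, with no overlap of libraries, in CPM, in either gene.

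Among 7 receptors that place cells in the follicle or the T cell zone, 2 were lower in BM-Treg. Called genes made up 28.6% of this list, against 8.75% over all genes. Ccr7, the receptor for T cell zone chemokines, was at 17.7, 15.5, 17.9 and 20.5 CPM in BM-Treg replicates 1 to 4 and at 25.4, 33.3, 48.9 and 68.0 CPM in SP-Treg replicates 1 to 4. It fell by 1.30 on the log2 scale (SE 0.27, adjusted p = 0.0163 by edgeR). Leaving out BM-Treg replicate 1, 2 or 3 removed the call, with log2 fold changes between -1.47 and -1.004 over the 8 fits, and against SP-Treg replicate 1 alone the log2 fold change was -0.51. Gpr183, which follows oxysterols at the border of the follicle and which BCL6 represses, fell by 0.66 (SE 0.14, adjusted p = 0.01 by edgeR). In batch 3 alone its log2 fold change was -0.20, and BM-Treg replicate 4, at 126 CPM, had the most Gpr183 of the BM-Treg libraries. Ccr7 and Gpr183, which draw cells to sites other than the follicle centre, were lower in BM-Treg as Cxcr5 was. Selplg, which encodes the selectin ligand PSGL-1, was not called, with a log2 fold change of 0.43 (SE 0.13, adjusted p = 0.0507 by edgeR). It averaged 275 ± 43.7 CPM in the BM-Treg and 205 ± 28.2 CPM in the SP-Treg libraries (SD, n = 4), and the values of both groups did not overlap. Selplg passed the threshold, higher in BM-Treg, under 9 of the 20 alternatives, the batch term among them (adjusted p = 0.0439 by edgeR, with a range of 0.014 to 0.245 over the 20). The log2 ratio of Cxcr5 to Ccr7 overlapped between the tissues, at 0.36 ± 0.31 in BM-Treg and 0.69 ± 0.37 in SP-Treg (SD, n = 4).

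Cytokines and cytokine receptors of the follicular response held 9 tested genes of 10, of which 3 were lower and 1 was higher in BM-Treg. Calls thus came to 44.4% of those tested, against 8.75% over all genes. Il1rn, the IL-1 receptor antagonist, and Il1r2, the IL-1 decoy receptor, which follicular Treg are known to express, fell by 2.61 and 2.09 on the log2 scale (SE 0.33 and 0.40, adjusted p = 0.00141 and 0.0193 by edgeR). Il1rn lay between 3.09 and 8.45 CPM in BM-Treg and between 23.7 and 42.4 CPM in SP-Treg. Il1r2 lay between 6.79 and 22.2 CPM in BM-Treg and between 33.6 and 69.9 CPM in SP-Treg, and it lost its call without BM-Treg replicate 2 and without BM-Treg replicate 4 (log2 fold changes between -2.55 and -1.86 over the 8 fits). Both chains of the IL-6 receptor passed the threshold in opposite directions. Il6st, the signalling chain, averaged 283 ± 31.8 CPM in the BM-Treg and 410 ± 43.2 CPM in the SP-Treg libraries (SD, n = 4, log2 fold change -0.53, adjusted p = 0.00964 by edgeR). Il6ra, the binding chain, was higher in BM-Treg with a log2 fold change of 0.55 (SE 0.15, adjusted p = 0.0408 by edgeR), and lost its call when any library other than BM-Treg replicate 3 or SP-Treg replicate 3 was left out (0.45 to 0.68 over the 8 fits).

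None of the 6 tested partners of SOSTDC1 in WNT and BMP signalling passed the threshold in the fit of all 8 libraries. Ctnnb1, which encodes β-catenin and was the most highly expressed of them, had a log2 fold change of -0.35 (SE 0.12, adjusted p = 0.087 by edgeR) and passed without SP-Treg replicate 3 (-0.43) and against SP-Treg replicate 1 alone (-0.66). Axin2, a target gene and inhibitor of WNT signalling, was at 88.4, 86.9, 91.8 and 94.9 CPM in BM-Treg replicates 1 to 4 and at 70.2, 70.2, 39.7 and 34.0 CPM in SP-Treg replicates 1 to 4. The groups did not overlap, and its log2 fold change was 0.76 (SE 0.22, adjusted p = 0.0598 by edgeR). It passed under 7 of the 20 alternatives, with adjusted p between 0.0041 by DESeq2 and 0.441 in batch 3 alone by edgeR. Leaving out SP-Treg replicate 1 or 2 made the call, at 0.93 and 0.91, and against SP-Treg replicate 1 alone the log2 fold change was 0.37. Bmpr2, which encodes a BMP receptor, was at -0.31 and passed without SP-Treg replicate 4 (-0.45) and against SP-Treg replicate 1 alone (-0.63). Of the close relatives of the 10 genes, Tox4 alone was tested, averaging 105 ± 3.39 CPM in the BM-Treg and 105 ± 5.90 CPM in the SP-Treg libraries (SD, n = 4, adjusted p = 0.985 by edgeR). Sost, the closest relative of Sostdc1, had 0 counts in all 8 libraries, and Tox3 had at most 2 counts in a library.

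**Figure D5:**
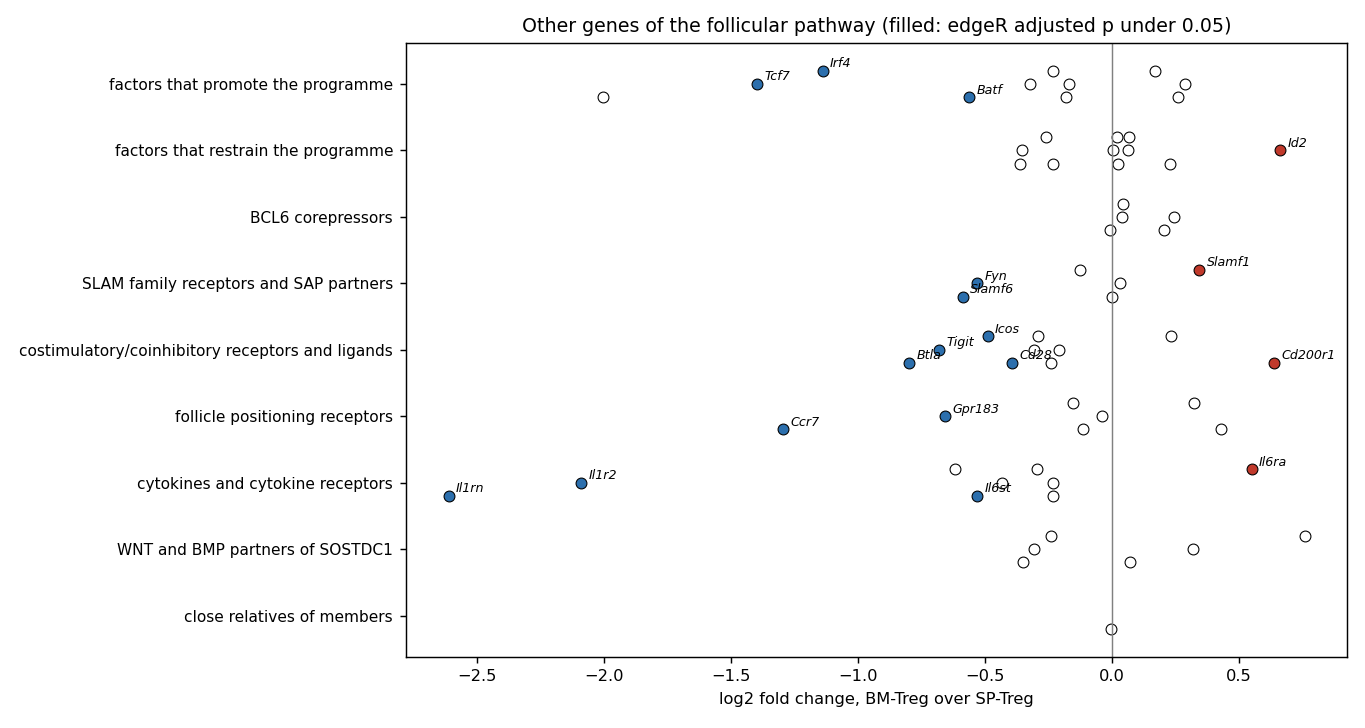
Log2 fold change, BM-Treg over SP-Treg (x axis), of the 66 tested genes of 9 lists of the follicular pathway (rows, with points set at 3 heights per row for legibility). Filled points passed an edgeR adjusted p of 0.05, blue where lower (14 genes) and red where higher in BM-Treg (4 genes), with Il1rn at -2.61 and Id2 at 0.66 as the lowest and highest of them.

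The genes whose pattern over the 8 libraries was most like that of Cxcr5, Bcl6 or Sostdc1 were sought among 11513 tested genes, by the root mean square difference of log2 CPM after each gene was centred on its own mean. Nearest to Cxcr5 were Tbc1d4 (0.204), Plagl1 (0.205) and Angptl2 (0.227). For Bcl6 the nearest were Slc26a2 (0.111), Pnkd (0.113) and Cct6a (0.124). Sostdc1 had no gene as close, with Gjb2 at 0.857, Slc7a10 at 0.973 and Sspo at 1.02. The gap junction gene Gjb2 averaged 3.15 ± 1.35 CPM in the BM-Treg and 30.6 ± 7.40 CPM in the SP-Treg libraries, and Tbc1d4 averaged 13.1 ± 2.16 CPM and 42.9 ± 5.35 CPM (SD, n = 4). All of these genes were also lower in BM-Treg, so that the difference between the tissues enters the measure of likeness.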

How the data were processed

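RNA of FoxP3+ cells from 4 BM-Treg and 4 SP-Treg samples was amplified (SPIA, NuGEN) and sequenced from a single end. The submitters' processing notes name cutadapt 1.9, STAR 2.5.2a, RSEM 1.2.30 and GRCm38. Tables of expected counts, which are RSEM's estimates of read numbers, and of FPKM were deposited per gene and per transcript, with the counts not normalized between libraries. Columns were matched to samples by name, and 0 columns were left without a match.

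The 10 genes, the pathway lists and the marker lists were chosen with earlier results of these data known. Of 137 distinct genes in the lists, 136 were matched, 5 of them through an identifier or older symbol. Expected counts were rounded, filtered with edgeR's default by group, scaled by TMM and compared by the quasi-likelihood test of edgeR (robust, no covariate, BH over all genes, threshold 0.05). Versions were edgeR 4.0.16, DESeq2 1.42.0 and limma 3.58.1 under R 4.3.3, and the fits were tested on simulated data. Marker lists were compared on log2(summed CPM + 0.5), and values of 4 libraries were screened with Dixon's test. Replicates were not duplicates (chi-square per degree of freedom at least 14.6). Without molecular identifiers, intervals cover counting error only.

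Genes named were all 10 follicular genes, Foxp3, up to 3 called genes per list with the largest log2 fold change (or, with none called, the one with the highest FPKM), the 3 genes most like Cxcr5, Bcl6 and Sostdc1 (mean log2 CPM at least 1, prior count 2), and genes that a setting or library decided. Prdm1, Icos, Cd28, Il6st, Pou2af1, Axin2, Selplg, Bmpr2, Il2ra, Rc3h1, Il1r1, Pax5, Sost and Tox3 were added after their values were seen, and some list genes are not reported here.

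The alternatives were DESeq2's size factors, DESeq2, limma-voom, limma-trend with a pseudocount of 1 or 0.1 on FPKM, no filter beyond 1 count, at least 10 counts in every library, batch as a term, batch 3 alone, a replicate block, scaling to Cd4 and CD3 genes, an adjusted p of 0.01 and each library left out. SP-Treg replicate 1 alone was added after the data had been seen. Promoters were read from RefSeq (GRCm38.p6), and 6 of the 10 genes matched.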

Additional observations from a re-analysis of the deposited data

Results flagged for a closer look

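Of 74 sets of 4 libraries of a tissue that were screened with Dixon's test, 4 held a library far from the other 3, and chance gives about 1 in 20. In BM-Treg, replicate 1 had 92.8 CPM of Tcf7, where the others lay between 57.5 and 62.4 CPM, and it was still below every SP-Treg library. In SP-Treg, replicate 3 had 105.7 CPM of Slamf1, where the others lay between 86.8 and 89.9 CPM. SP-Treg replicate 2 had 153.8 CPM of Gpr183, where the others lay between 144.3 and 145.8 CPM. The summed B cell markers were at 127 CPM in the same library and between 11.6 and 29.5 CPM in the other SP-Treg libraries, and none of the 10 follicular genes had a library this far from the rest of its tissue.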

How the results depend on the processing

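The 5 follicular genes with no overlap, and Pdcd1, were lower in BM-Treg under all 20 alternatives, Tox2 was higher under all 20, and Tox was lower in 7 of them. Sostdc1 was between -5.05 and -3.26, the latter on log2(FPKM + 1), and Cd200 was -0.54 on log2(FPKM + 0.1). The number of genes called was 765 and 728 by limma-trend on log2(FPKM + 1) and log2(FPKM + 0.1), 258 with batch as a term, 598 scaled to T cell genes, 79 in batch 3 alone, 683 against SP-Treg replicate 1 alone, 427 at an adjusted p of 0.01, and 690 to 1048 with a library left out (fewest without BM-Treg replicate 2). On log2(FPKM + 1), 482 of the 765 were higher in BM-Treg, against 499 of 1172 by edgeR. The pathway genes called were 11, 6, 11, 2 and 6 for log2(FPKM + 0.1), the batch term, scaling to T cell genes, batch 3 alone and an adjusted p of 0.01, and 10 to 18 with a library left out. In batch 3 alone the lone BM-Treg library is assumed to vary like the others. The cause of these changes was not tested. With the replicate block 948 genes and 14 pathway genes were called. Libraries with the same number correlated in their deviations between -0.176 and 0.059, so the numbers do not pair the samples. Ncor1 and Tox4, near 0 and not called, changed sign: Ncor1 was 0.0627 and 0.0629 on log2(FPKM + 1) and log2(FPKM + 0.1), 0.0088 without a filter, 0.0195 at 10 counts, 0.1042 with the batch term, 0.0651 scaled to T cell genes, 0.1222 in batch 3 alone, and between -0.0904 and 0.0603 with a library left out. Tox4 was 0.0029 with DESeq2's size factors and with DESeq2, 0.1272 and 0.1317 on the FPKM scales, 0.0148 without a filter, 0.0245 at 10 counts, 0.0533 scaled to T cell genes, and between -0.0351 and 0.0395 with a library left out. Depth limits Il21 and Ascl2, which rest on at most 13 counts per library.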
